A study of Mus musculus with 8 samples.

Results

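Il17a, Il17f, Rora, Ahr and Maf, the genes of 2 cytokines of T helper 17 (Th17) cells and of 3 transcription factors that regulate Th17 cytokines, were followed in mouse regulatory T cells (Tregs) polarized in culture with oxPAPC, a mixture of oxidized phospholipids, or without it. The members were taken by gene symbol, and all 5 were found among the 19330 genes of the count table and passed the filter on low counts, which left 16434 genes. The oxPAPC group had 4 libraries of Tregs made from naive CD4+ T cells of B6 mouse spleen over 3 days of culture with oxPAPC, and the Control group had 4 libraries of such cells cultured over the same 3 days without it. The labels give neither the age or sex of the mice, nor a dose, nor do they say if the replicates are separate animals or separate cultures. The p-values therefore measure the spread between these libraries only.

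Th17 cells are CD4+ T cells that defend mucosal surfaces against extracellular bacteria and fungi and take part in autoimmune inflammation. They and induced Tregs both arise from naive T cells under TGF-beta, and the inflammatory cytokine IL-6 favours the Th17 side through STAT3. IL-17A and IL-17F are related secreted proteins that pair as homodimers or as a heterodimer and act on epithelial cells, fibroblasts and endothelial cells through the IL-17RA and IL-17RC receptor. Rora encodes the nuclear receptor ROR alpha, which promotes Th17 differentiation. Ahr encodes the aryl hydrocarbon receptor, a transcription factor activated by ligands such as tryptophan metabolites and dioxin. Maf encodes c-Maf, a factor that drives IL-10 in several T cell types and takes part in both Th17 and Treg programmes.

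Il17a and Il17f are neighbours on chromosome 1. In GRCm38, Il17a spans chr1:20730905-20734496 on the plus strand and Il17f spans chr1:20777146-20790617 on the minus strand. They are therefore transcribed toward each other, with their ends facing and their RefSeq starts on the outer sides, 53365 bases apart. The 150 bases before each RefSeq start (GRCm38.p6) are shown because the cytokine pair moved together and because RORs bind the letters AGGTCA. Capitals mark that ROR core, read as TGACCT where it lies on the other strand. The Il17a stretch is chr1:20730755-20730904 on the plus strand, and the Il17f stretch is chr1:20784271-20784420 on the minus strand, each written 5′ to 3′ along its gene.
Il17a: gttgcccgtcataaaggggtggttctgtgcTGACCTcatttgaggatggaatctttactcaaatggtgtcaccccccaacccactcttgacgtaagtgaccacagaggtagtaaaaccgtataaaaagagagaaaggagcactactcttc
Il17f: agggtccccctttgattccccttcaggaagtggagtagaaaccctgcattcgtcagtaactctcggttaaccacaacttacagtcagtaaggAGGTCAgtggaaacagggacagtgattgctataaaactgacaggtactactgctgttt

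Each promoter window, taken from 250 bases before to 50 bases after the start, held AGGTCA once when both strands were searched. In Il17a it lay on the strand opposite to the gene at -120 to -115 from the start, and in Il17f on the strand of the gene at -58 to -53. Of 32851 RefSeq promoter windows of the same 300 bases, 16.3% hold AGGTCA. The MAF core TGCTGA, held by 19.5% of windows, was found at -123 to -118 of Il17a, where it shares bases with the ROR core, and its letters are not in the Il17f window. The AHR core GCGTG (32.4% of windows) and the STAT site TTCNNNGAA (8.3% of windows) had no match in either window. These matches describe letters in a window and show no binding.

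Both cytokine transcripts rose, and no factor transcript passed the test upward. Il17a rose 12.6-fold and Il17f 6.53-fold in oxPAPC libraries over Control libraries, Ahr fell by 0.48 on the log2 scale, and Rora and Maf did not pass the test. In the quasi-likelihood test of edgeR, with p-values adjusted over all 16434 genes by the Benjamini-Hochberg method, 3 of the 5 members passed an adjusted p of 0.05, 2 upward and 1 downward. Of all genes tested, 13.3% passed, 6.75% upward and 6.52% downward. Counts of 14017583 to 21619731 per library lay behind these values, the median over all genes was a log2 fold change of -0.01, and library size scaling shifted that median to 0.12. A single gene, Gm26917, took 9.35% to 19.4% of the counts in oxPAPC libraries and 8.59% to 29.1% in Control libraries, the highest share being in Control replicate 2. With that share as a covariate Il17a, Il17f and Ahr still passed (edgeR adjusted p of 0.000916, 0.000307 and 0.0336), while the calls of Hif1a, Hsp90aa1 and Il4, described further on, were lost (0.0557, 0.0678 and 0.05).

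**Figure D1:**
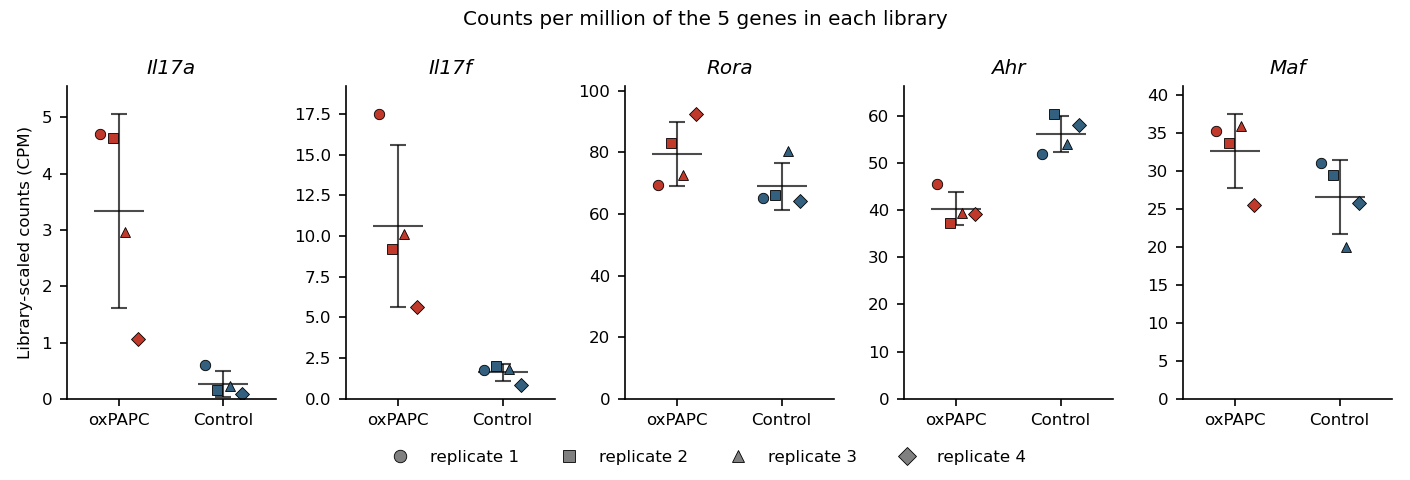
Library-scaled counts (CPM, linear axes from 0) of the 5 genes in each of 4 oxPAPC and 4 Control libraries, with the mean and SD of each group as bars and the replicate number as the symbol. The groups do not overlap for Il17a, Il17f and Ahr, and they overlap for Rora and Maf.

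Il17a, the signature cytokine gene of Th17 cells, was low in Control libraries. It passed the filter on low counts through its oxPAPC libraries, and its test and rank carry that limit. It had 63, 70, 67 and 21 counts in oxPAPC replicates 1 to 4, against 9, 2, 5 and 2 counts in Control replicates 1 to 4. Scaled to library size with TMM, this was 4.70, 4.63, 2.96 and 1.07 CPM in oxPAPC libraries, against 0.599, 0.151, 0.228 and 0.0920 CPM in Control libraries. Every oxPAPC library was above every Control library, with oxPAPC replicate 4 and Control replicate 1 nearest to each other. The log2 fold change was 3.65 ± 0.56 (SE, n = 4 libraries each, edgeR adjusted p = 0.000818), and its 95% interval ran over 2.45 to 4.85. Only 0.134% of the tested genes had a higher log2 fold change, which placed Il17a at rank 23. With 2 counts in a library the exact Poisson 95% interval is 0.242 to 7.22 counts, so the Control level, and with it the size of the fold, is loosely fixed. Without Control replicate 1, which holds 9 of the Control counts, the log2 fold change was 4.33, more than 1.5 times the fold with all libraries.

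Il17f was the more abundant of the pair. It had 234, 139, 229 and 111 counts in oxPAPC replicates 1 to 4, against 27, 27, 40 and 19 counts in Control replicates 1 to 4. In CPM these were 17.5, 9.19, 10.1 and 5.63 in oxPAPC libraries, against 1.80, 2.04, 1.83 and 0.874 in Control libraries. The lowest oxPAPC library, replicate 4, was still above the highest Control library. The log2 fold change was 2.71 ± 0.35 (SE, n = 4 each, edgeR adjusted p = 0.000272), with a 95% interval of 1.96 to 3.46, and it ranked 39 of all genes tested. Among all genes, the share whose oxPAPC libraries all lay above the Control libraries was 9.50%.

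Replicates differed far more in the cytokine genes than in the factors. In oxPAPC libraries the coefficient of variation was 51.4% for Il17a and 46.9% for Il17f, against 13.1% for Rora, 8.77% for Ahr and 14.9% for Maf. In Control libraries it was 85.1%, 31.7%, 11.0%, 6.75% and 18.5% for the same genes. The cytokine genes had far fewer counts, down to 2 for Il17a in Control libraries, while the factors had at least 390 per library. Counting error is therefore larger relative to the level for the cytokine genes, and its part in the spread of any of the 5 genes was not separated. Within the oxPAPC group, replicate 1 was highest and replicate 4 lowest for both Il17a and Il17f. Replicate 4 was also the lowest of the oxPAPC libraries for Maf and the highest for Rora. Within the Control group, replicate 4 was lowest in CPM for both cytokines, although replicates 2 and 4 both had 2 counts of Il17a.

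The balance within the pair was not shown to differ between the groups. Il17a made up 21.2%, 33.5%, 22.6% and 15.9% of the summed Il17a and Il17f counts in oxPAPC replicates 1 to 4, against 25%, 6.90%, 11.1% and 9.52% in Control replicates 1 to 4. The oxPAPC libraries were higher than 3 of the Control libraries and overlapped with Control replicate 1. Wilson 95% intervals, which cover counting error only, were wide in Control libraries, 1.91% to 22% in replicate 2 and 13.8% to 41.1% in replicate 1, against 16.9% to 26.2% in oxPAPC replicate 1. The mean log2 ratio of Il17a to Il17f, with 0.5 added to each count, was -1.75 ± 0.58 in oxPAPC libraries and -2.71 ± 0.82 in Control libraries (SD, n = 4 each). The difference of 0.96 had a two-sided exact permutation p of 0.114, where 0.0286 is the smallest p that 4 against 4 libraries allow. The larger fold of Il17a is therefore not shown to exceed that of Il17f.

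**Figure D2:**
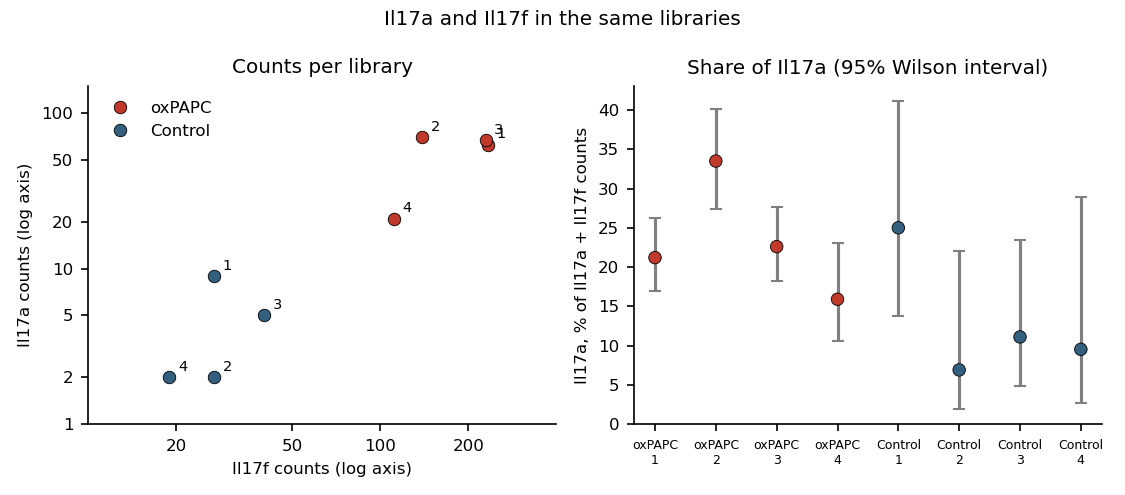
Left, counts of Il17a against counts of Il17f in each library (both axes logarithmic, replicate numbers beside the points); right, the percentage of the summed Il17a and Il17f counts that is Il17a, with 95% Wilson intervals. The oxPAPC libraries hold 21 to 70 Il17a counts and the Control libraries 2 to 9, while the percentages overlap between the groups.

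Mcm3 and Paqr8, which lie within 200000 bases of the pair on the Il17f side, did not pass. Mcm3, a subunit of the helicase that unwinds DNA at replication, had 176 ± 48.5 CPM in oxPAPC libraries and 143 ± 26.1 CPM in Control libraries (SD, n = 4 each), a log2 fold change of 0.30 (edgeR adjusted p = 0.358). Paqr8, a membrane progestin receptor gene, had a log2 fold change of 0.11 (edgeR adjusted p = 0.767).

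**Figure D3:**
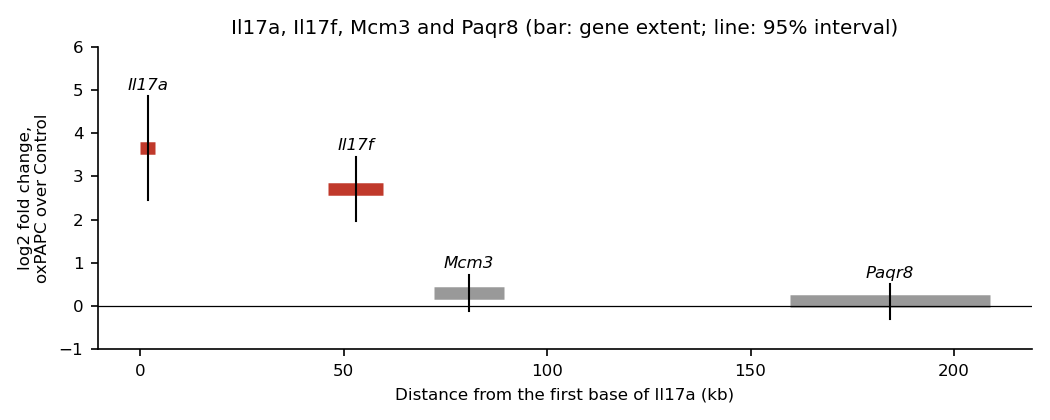
Log2 fold change, oxPAPC over Control, of Il17a, Il17f, Mcm3 and Paqr8, plotted against the distance in kb from the first base of Il17a; horizontal bars span the genes and vertical lines are 95% intervals. Il17a and Il17f stand at 3.65 and 2.71, and Mcm3 and Paqr8 at 0.30 and 0.11.

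Ahr was the only factor among the members to pass, and it went down. It had 45.5, 37.3, 39.4 and 39.2 CPM in oxPAPC replicates 1 to 4, against 51.9, 60.3, 54.1 and 58.1 CPM in Control replicates 1 to 4. The groups did not overlap, with every oxPAPC library below every Control library, a pattern seen in 9.86% of all genes. The log2 fold change was -0.48 ± 0.13 (SE, n = 4 each, edgeR adjusted p = 0.0225), with a 95% interval of -0.75 to -0.21. The call was lost under 6 of 17 alternatives, among them library size scaling (log2 fold change -0.34 beside the all-gene median of 0.12, edgeR adjusted p = 0.241) and the fits without oxPAPC replicate 2 or 4 or Control replicate 2 or 4 (0.0614 to 0.0734). In the authors' deposited table Ahr had a log2 fold change of -0.45 and an adjusted p of 0.0150.

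Rora had 69.4, 83.1, 72.5 and 92.3 CPM in oxPAPC replicates 1 to 4, against 65.2, 66.3, 80.3 and 64.2 CPM in Control replicates 1 to 4. The groups overlapped, with Control replicate 3 above 2 of the oxPAPC libraries. The log2 fold change was 0.20 ± 0.14 (SE, n = 4 each, edgeR adjusted p = 0.399), and the 95% interval of -0.10 to 0.51 leaves room for changes in either direction. Maf had 35.3, 33.7, 35.9 and 25.5 CPM in oxPAPC replicates 1 to 4, against 31.0, 29.4, 20 and 25.7 CPM in Control replicates 1 to 4. The oxPAPC libraries were mostly higher, but replicate 4 lay below 3 of the Control libraries. The log2 fold change of Maf was 0.30 ± 0.16 (SE, n = 4 each, edgeR adjusted p = 0.264), with a 95% interval of -0.05 to 0.65. Rora, Ahr and Maf each overlap a noncoding gene on the other strand in the GENCODE M21 annotation, sharing 82, 127 and 440 exon bases, and the sources used here do not state a strand setting for the counting.

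Per length, the factors stood above the cytokines in Control libraries, while the ranges of factors and cytokines overlapped in oxPAPC libraries. Levels between genes were compared as CPM per kilobase of the union of annotated exons, which understates genes with long, seldom used exons. In oxPAPC libraries the order was Ahr (6.55 ± 0.57), Rora (6.07 ± 0.80), Il17f (5.24 ± 2.46), Maf (3.95 ± 0.59) and Il17a (2.85 ± 1.47 CPM per kilobase, SD, n = 4). Every neighbouring pair in that order had overlapping library ranges. In Control libraries the order was Ahr (9.10 ± 0.61), Rora (5.28 ± 0.58), Maf (3.22 ± 0.59), Il17f (0.808 ± 0.256) and Il17a (0.228 ± 0.194 CPM per kilobase, SD, n = 4). There the ranges of neighbouring genes did not overlap, apart from those of Il17f, at 0.432 to 1.01, and Il17a, at 0.0786 to 0.511 CPM per kilobase.

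**Figure D4:**
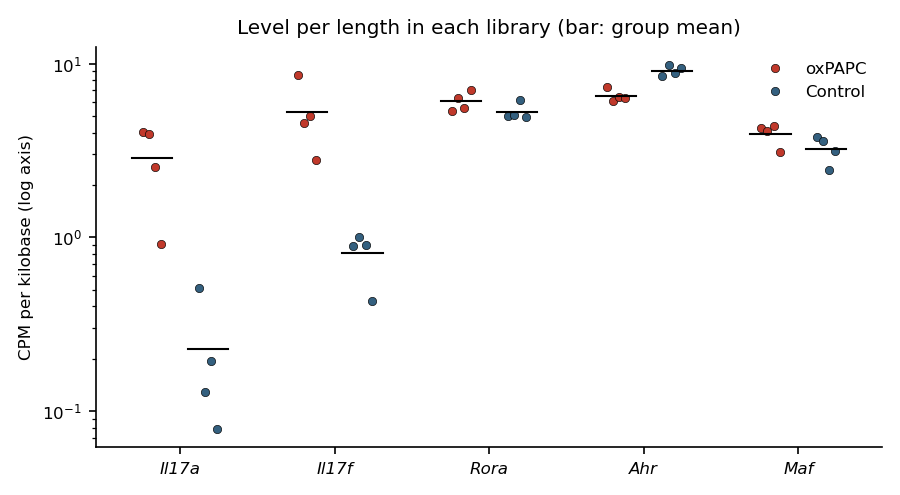
Level per length (CPM per kilobase, logarithmic axis) of the 5 genes in each oxPAPC and Control library, with the group mean as a short bar. In Control libraries both cytokine genes lie below every factor, while in oxPAPC libraries Il17f, at 2.78 to 8.64, lies among the factors.

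Other genes of the Th17 programme moved in both directions. Of 26 listed genes reported here, the members left out, 22 were tested, 8 rose, 2 fell and 12 did not pass. Over all genes tested, 6.75% rose and 6.52% fell. The median log2 fold change of the list was 0.41, beside -0.01 for all genes. Among cytokines, Csf2, which encodes GM-CSF, had 7.86 ± 2.47 CPM in oxPAPC libraries and 0.871 ± 0.450 CPM in Control libraries (SD, n = 4 each), a log2 fold change of 3.21 (edgeR adjusted p = 8.51e-05). Il10, an anti-inflammatory cytokine gene, had 2.43 ± 0.211 CPM in oxPAPC libraries and 0.598 ± 0.277 CPM in Control libraries (SD, n = 4 each), a log2 fold change of 1.97 (edgeR adjusted p = 0.00147). Csf2, at 8 to 22 counts in Control libraries, and Il10, at 6 to 22, reached the filter on low counts only with their oxPAPC libraries. Their tests carry that limit. Tgfb3, which encodes a TGF-beta ligand tied to inflammatory Th17 cells in mice, was the strongest to fall among the list's tested genes, at 1.90 ± 0.761 CPM in oxPAPC libraries and 8.19 ± 1.85 CPM in Control libraries (SD, n = 4 each; log2 fold change -2.09, edgeR adjusted p = 0.000513).

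Receptors of the programme split as well. Ccr6, the chemokine receptor of Th17 cells and of a subset of Tregs, had 51.1, 51.4, 65.4 and 74.0 CPM in oxPAPC replicates 1 to 4, against 33.2, 28.4, 40.6 and 35.2 CPM in Control replicates 1 to 4. It rose by 0.82 on the log2 scale with no overlap between the groups (edgeR adjusted p = 0.00449). Il12rb1, the chain shared by the IL-12 and IL-23 receptors, rose by 1.16 (edgeR adjusted p = 0.00174). Il6st, which encodes the signalling chain gp130 of the IL-6 receptor, fell by 0.72 (edgeR adjusted p = 0.00364), a call lost with library size scaling (0.0615). Il6ra, its ligand-binding partner, had a log2 fold change of -0.40 (edgeR adjusted p = 0.0724), and Il1r1, the IL-1 receptor gene, one of 1.07 at 1.06 CPM in oxPAPC libraries and 0.499 CPM in Control libraries (edgeR adjusted p = 0.0687). The call turned under 3 alternatives for Il6ra and 1 for Il1r1. Of the 26 listed genes, 24 were in the count table, which holds no gene with fewer than 5 counts in its second-highest library. Il22 and Il23r were not among these 24, so no values are given for them.

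Stat3, which relays IL-6 and IL-23, had a log2 fold change of -0.05 (edgeR adjusted p = 0.900), and the sign turned with library size scaling to 0.10. Of the factors that prepare chromatin of Th17 loci, Irf4 rose by 1.43 (edgeR adjusted p = 0.000189) and Batf by 0.93 (edgeR adjusted p = 0.000837). Hif1a and Junb rose by 0.53 and 0.65 (edgeR adjusted p of 0.0361 and 0.0458), calls that were lost under 8 and 9 of 17 alternatives.

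**Figure D5:**
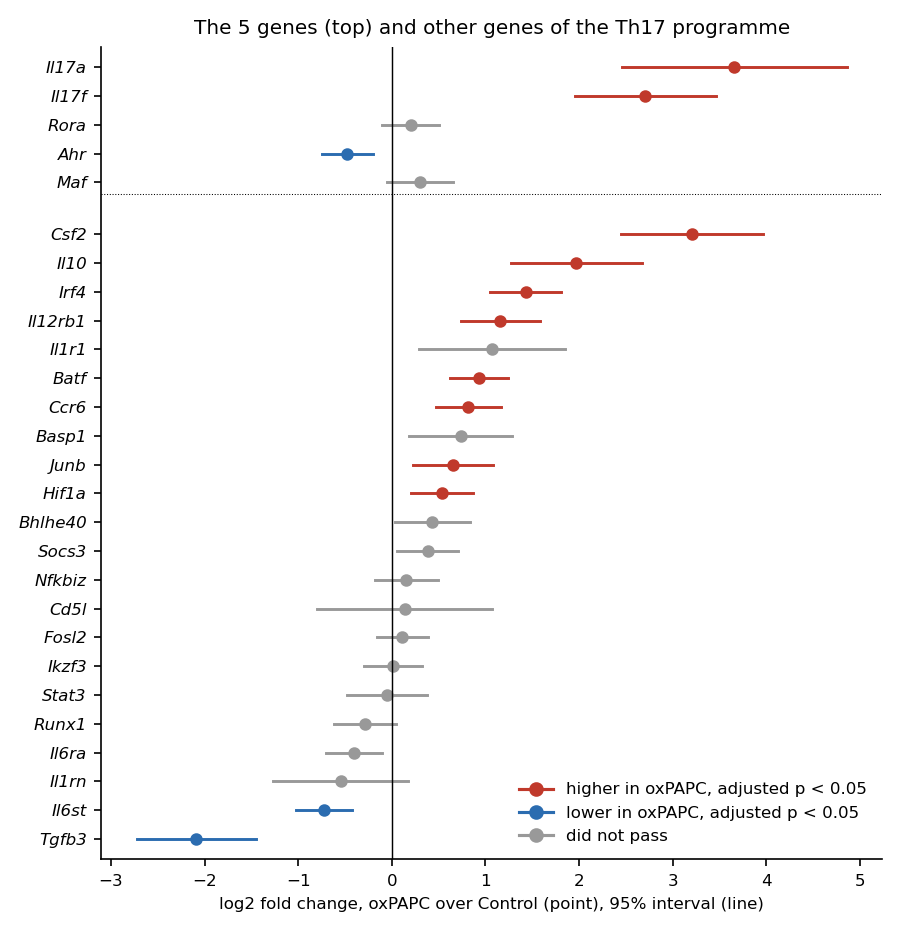
Log2 fold change, oxPAPC over Control, with its 95% interval for the 5 members (above the dotted line) and 22 tested genes of the Th17 programme list. Il17a, Il17f and Csf2 have the highest values, and Tgfb3 the lowest.

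Il21 and Ccl20 fell under the filter on low counts, yet their counts lay almost wholly in oxPAPC libraries. Il21, a cytokine that Th17 cells make and respond to, had 7, 12, 9 and 10 counts in oxPAPC replicates 1 to 4, against 0, 0, 1 and 0 counts in Control replicates 1 to 4. Ccl20, the ligand of CCR6, had 12, 2, 12 and 18 counts in oxPAPC replicates 1 to 4, against 0 counts in each Control library. Both were in the table through their oxPAPC counts alone, since every gene in it has at least 5 counts in its second-highest library, so their counts are given without a test.

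Il17c, the other IL-17 ligand tested, and the tested receptors did not pass, while Il17d and Il17re fell under the filter on low counts. Il17c, mainly an epithelial cytokine gene, had 1.84 ± 0.631 CPM in oxPAPC libraries and 1.73 ± 0.373 CPM in Control libraries (SD, n = 4 each; log2 fold change 0.08, edgeR adjusted p = 0.900). Of 5 tested genes of IL-17 receptors and their adaptor (median log2 fold change -0.22), none passed by edgeR. With 13.3% of all genes passing, a list of 5 can hold none. Of these 5 genes, 2 had an unadjusted edgeR p under 0.05, as had 4514 of all 16434 genes tested, and DESeq2 and limma-voom each called 1. Il17ra had a log2 fold change of -0.47 (edgeR adjusted p = 0.0918) and Il17rc one of 0.95 at 1.90 CPM in oxPAPC libraries and 0.999 CPM in Control libraries (edgeR adjusted p = 0.0601). The call of Il17rc was gained with DESeq2 (0.0374) and 4 other alternatives, and that of Il17ra with 2.

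Genes around each factor were read from lists that were chosen with earlier results of these data known. Of 11 tested genes of the ROR, REV-ERB and clock list (median log2 fold change -0.21), 2 fell and none rose by edgeR. None was higher at an unadjusted p under 0.05, by DESeq2 or by limma-voom. Of all 16434 genes tested, 4514 had an unadjusted edgeR p under 0.05 in either direction. Over all genes tested by edgeR, 6.75% rose and 6.52% fell. Dbp, a clock output factor, had 15.9, 18.9, 19.8 and 13.9 CPM in oxPAPC replicates 1 to 4, against 40.3, 70.3, 38.4 and 58.3 CPM in Control replicates 1 to 4. It fell by 1.59 on the log2 scale (edgeR adjusted p = 0.000229), and Per1, a clock repressor, fell by 0.83 (edgeR adjusted p = 0.00537). The REV-ERB genes Nr1d1 and Nr1d2, whose proteins compete with RORs for the same sites, had log2 fold changes of -0.37 and -0.25 (edgeR adjusted p of 0.333 and 0.306).

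Of 10 tested genes of the AHR complex and its targets, Ahr included (median log2 fold change 0.13), 2 rose and 1, Ahr itself, fell. Over all genes tested, 6.75% rose and 6.52% fell. The canonical AHR target Cyp1a1 had 2.33 ± 0.610 CPM in oxPAPC libraries and 1.38 ± 0.579 CPM in Control libraries (SD, n = 4 each; log2 fold change 0.75, edgeR adjusted p = 0.162). The targets Tiparp and Ahrr had log2 fold changes of -0.18 and 0.39 (edgeR adjusted p of 0.720 and 0.456), and the partner Arnt one of -0.36 (edgeR adjusted p = 0.109). Gpr15, a homing receptor gene induced by AHR in Tregs, rose by 1.15 (edgeR adjusted p = 0.0275), and Hsp90aa1, which encodes a chaperone of the AHR complex, rose by 0.78 (edgeR adjusted p = 0.0304). Both calls were lost under several alternatives, 4 of 16 for Gpr15 and 5 of 17 for Hsp90aa1.

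None of the 8 tested genes of the MAF and BACH families passed by edgeR, DESeq2 or limma-voom, and 2 were lower at an unadjusted edgeR p under 0.05 (median log2 fold change -0.06). By edgeR 13.3% of all genes passed, 6.75% upward, a share at which a list of 8 genes can hold none. An unadjusted edgeR p under 0.05, in either direction, was found for 4514 of all 16434 genes tested. Of 7 tested cytokine and receptor genes linked to c-Maf (median log2 fold change 0.87), 3 rose by edgeR, 5 by DESeq2 and 3 by limma-voom, and 4 were higher at an unadjusted edgeR p under 0.05. None was lower by any of these. Besides Il10, those that rose by edgeR were Il9, with 12 ± 3.04 CPM in oxPAPC libraries and 2.31 ± 1.32 CPM in Control libraries (SD, n = 4 each; log2 fold change 2.36, edgeR adjusted p = 0.000664), and Il4, with 1.78 ± 0.854 CPM in oxPAPC libraries and 0.388 ± 0.317 CPM in Control libraries (SD, n = 4 each; log2 fold change 2.19, edgeR adjusted p = 0.0248). The call of Il4 was lost under 5 of 16 alternatives (edgeR adjusted p of 0.05 to 0.108). With 0 to 17 counts in Control libraries, Il4 reached the filter on low counts only with its oxPAPC libraries, as did Il10, and their tests carry that limit.

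Of 14 tested genes known to restrain Th17 cells (median log2 fold change -0.09), 2 rose, 1 fell and 11 did not pass. Among all genes tested, 6.75% rose and 6.52% fell. Foxp3, the lineage factor of Tregs and an antagonist of RORs, ranged from 88.5 to 211 CPM in oxPAPC libraries and from 117 to 200 CPM in Control libraries (log2 fold change -0.09, edgeR adjusted p = 0.854, with a sign that turned to 0.05 with library size scaling). Tbx21 and Eomes, T-box factors of Th1 and cytotoxic cells, rose by 2.31 and 1.51 (edgeR adjusted p of 1.98e-05 and 0.000659). Tcf7, a factor of naive and stem-like T cells, fell by 0.61 (edgeR adjusted p = 0.0439), a call lost under 10 of 17 alternatives.

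The libraries are bulk RNA, in which more cells with a transcript and more transcript per cell cannot be told apart. All 9 markers of T cells and Tregs were tested and none passed by edgeR or limma-voom, while 2 were higher at an unadjusted p under 0.05 and 1 by DESeq2, with summed levels of 1895 to 2846 CPM in oxPAPC libraries and 1922 to 2338 CPM in Control libraries. At an unadjusted edgeR p under 0.05, 4514 of all 16434 genes tested passed in either direction. Gamma delta T cells are another source of IL-17. Of 12 listed markers of theirs, 5 were in the table, and their summed level was 5.69 to 7.80 CPM in oxPAPC libraries and 2.34 to 3.52 CPM in Control libraries. All 3 tested, Trgc2, Zbtb16 and Blk, rose, whereas Trdc, the delta chain constant gene that defines these cells, was at 0.0746 to 0.595 CPM in oxPAPC libraries and 0.266 to 1.33 CPM in Control libraries. Of the 2 markers of CD8 T cells, Cd8a rose (log2 fold change 1.66, edgeR adjusted p = 0.00103) and Cd8b1 did not pass (0.09, edgeR adjusted p = 0.84). Their sum was 10.9 to 18.7 CPM in oxPAPC libraries and 6.72 to 8.90 CPM in Control libraries. Over all genes tested by edgeR, 6.75% were higher and 6.52% lower. Of 8 markers of innate lymphoid and natural killer cells, 5 were tested, 3 rose and 1 fell, with sums of 29.5 to 36.3 CPM in oxPAPC libraries and 28.3 to 36.6 CPM in Control libraries. Klrk1, Id2 and Il1rl1 rose, with log2 fold changes of 2.14, 0.70 and 1.44, and Kit fell, with -0.72. Kit had 13.7 CPM in oxPAPC and 22.5 CPM in Control libraries, and Id2 13.3 and 8.16 CPM, so the sums hide opposite moves. Of 5 B cell markers 3 were higher, while Cd79a and Cd79b had log2 fold changes of 0.07 and -0.58 (edgeR adjusted p of 0.902 and 0.0983). The B cell markers summed to 15.2 to 18.1 CPM in oxPAPC libraries and 9.52 to 14.5 CPM in Control libraries. Those of macrophages and dendritic cells summed to 21.0 to 24.6 CPM in oxPAPC libraries and 9.88 to 15.2 CPM in Control libraries, with 2 of 6 tested higher. The part of these cells in the Il17a and Il17f result was not tested.

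Genes whose profile over the 8 libraries was most like each member were found by the mean absolute difference of log2 CPM, each gene centred on its own mean, among 11492 other genes. The difference between the groups was not removed, so a like fold change alone can bring genes near to each other. For Il17a they were Il3, a cytokine gene of activated T cells, Il17f and Upp1, which encodes uridine phosphorylase, with differences of 0.42, 0.51 and 0.52, against a median of 1.59 over all genes compared. For Il17f they were Upp1, the B lineage factor gene Pax5 and the chemokine gene Ccl22, with 0.33, 0.33 and 0.40 against a median of 1.29. The log2 fold changes of Upp1, Pax5 and Ccl22 were 2.52, 2.22 and 2.49. Il3 had 6.06 CPM in oxPAPC libraries and 0.424 CPM in Control libraries, a log2 fold change of 3.86, and it reached the filter on low counts only with its oxPAPC libraries. The genes nearest to Rora were Zfp961, Tbk1, a kinase gene of innate immune signalling, and Gnal (0.04, 0.06 and 0.07, against a median of 0.29). Nearest to Ahr were Ifngr1, the gene of an interferon gamma receptor chain, Fndc3b and Polr3gl (0.06, 0.07 and 0.07, against a median of 0.31). Nearest to Maf were Crip1, Nkg7, a gene of cytotoxic granules, and Smco4 (0.05, 0.06 and 0.07, against a median of 0.32).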

How the data were processed

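RNA of in vitro polarized Tregs was sequenced from 4 oxPAPC and 4 Control libraries. Reads were processed with STAR 2.7.8a, featureCounts 2.0.2 and DESeq2 1.30.1 on GRCm38.p6, per the submitters' processing notes. The authors deposited raw whole-number counts per gene, not normalized, and per the file headers their own log2 fold changes with p-values. No gene in the table has fewer than 5 counts in its second-highest library.

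Counts were filtered with filterByExpr, scaled by TMM and tested by edgeR 4.0.16 quasi-likelihood (R 4.3.3), adjusted by Benjamini-Hochberg. Several genes with few Control counts, among them Il17a, Csf2, Il10, Il4, Il3, Il1r1, Gpr15, Trgc2 and Blk, reached the filter only with their oxPAPC libraries. Their tests carry that limit. Dividing the log2 fold change by the root of F gave its SE. Intervals at 95% use that SE, CPM follow TMM, and log2 CPM used a prior count of 2. DESeq2 1.42.0 and limma 3.58.1 were alternatives. Exon lengths came from GENCODE M21, whose coordinates match the table for all 5 genes, and promoters from RefSeq, which held 3 of the 5.

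Members and lists were chosen with earlier results of these data known. Named were the members, list genes that passed, known regulators, neighbours and the 3 most alike genes per member of at least 1 CPM. Other list genes, and markers, were named after their values were seen. Not every listed or neighbouring gene is reported here.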

Additional observations from a re-analysis of the deposited data

Results flagged for a closer look

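Among the members, the named list genes and the neighbours, 68 groups of 4 values were searched for 1 library far from its 3 companions. Chance gives about 3.4 such libraries, and 2 were found. Rora had 80.3 CPM in Control replicate 3, against 64.2 to 66.3 CPM in the other Control libraries. Without that library the log2 fold change of Rora was 0.28 (edgeR adjusted p = 0.227). Il1r1 had 0.609 CPM in oxPAPC replicate 4, against 1.19 to 1.26 CPM in the other oxPAPC libraries. The same library was the lowest of its group for Il17a and Il17f.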

How the results depend on the processing

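Il17a and Il17f kept their direction and passed under all alternatives run that tested them, 16 for Il17a, which the filter at a mean of 5 CPM removes, and 17 for Il17f. With one library left out their log2 fold changes ranged over 3.33 to 4.33 and 2.36 to 2.92. Rora and Maf did not pass under any of 17 alternatives, with log2 fold changes of 0.12 to 0.28 and 0.18 to 0.40 with one library left out. Ahr stayed negative throughout. It did not pass with library size scaling (-0.34) or the replicate block (-0.48, edgeR adjusted p = 0.0675), and with one library left out it ranged over -0.54 to -0.44, not passing in 4 of 8 fits. The ratio of Il17a to Il17f did not pass under any setting. Its difference ranged over 0.70 to 1.35 with one library left out, and was 0.96 with libraries paired by number (exact p = 0.250, where 4 pairs allow no p below 0.125).

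Over all genes, 2182 were called in the analysis as reported, 1110 higher and 1072 lower. With library size scaling 458 genes were lower and 71.6% of calls were upward, compared with 50.9% under TMM. The replicate block called 1453 genes, 708 of them lower. With one library left out the calls numbered 1390 to 2134, 710 to 1057 higher and 680 to 1144 lower, with 1390 calls without Control replicate 2 and 694 lower without oxPAPC replicate 4. In the Th17 programme list 6 to 9 genes rose and 2 to 3 fell with one library left out, and 1 fell with library size scaling. What caused these shifts was not tested, although fits without a library have fewer samples. Deviations from the group means of libraries with the same number correlated at 0.321, -0.053, -0.368 and -0.035, and not every library correlated best with its own number, so the replicate numbers were not taken to pair them.

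Of 45 other named genes, 24 passed, and 16 of these kept direction and call under every alternative that tested them. Genes that did not pass changed sign as follows. Under library size scaling Foxp3 had a log2 fold change of 0.052 and Stat3 0.097, and with voom quality weights Il17c had -0.0047. With 1 library left out the values ran over -0.326 to 0.089 for Foxp3, -0.236 to 0.038 for Stat3, -0.122 to 0.266 for Il17c and -0.371 to 0.107 for Tiparp. Depth limits Il17a in Control libraries, at 2 to 9 counts.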
